A study of Mus musculus with 6 samples.

Results

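Checkpoint CD8 cells were a group of tumor T cells defined by their own transcripts. A cell belonged when it held at least 1 transcript molecule (unique molecular identifier, UMI) of Cd8a or Cd8b1, 0 of Cd4 and Foxp3, at least 1 of Pdcd1, at least 1 of Havcr2 or Lag3, and 0 of the proliferation genes Mki67 and Top2a. Of the 12818 cells in the count table, 4497 passed the Cd8a or Cd8b1 gate without Cd4 or Foxp3 and are called Cd8-gated cells, and 180 of these were checkpoint CD8 cells. The cells came from tumors of the melanoma line B16-F10 grown under the skin of Foxp3-EGFP-DTR mice and were sorted as TCRβ+. In these mice Foxp3+ regulatory T cells carry the diphtheria toxin receptor, so toxin removes them. Of the 6 samples, 3 came from mice given PBS and 3 from mice given diphtheria toxin (DTx), and every mouse carried the transgene and a tumor. The labels tie none of the 6 library suffixes in the table to a sample, so libraries are named 1 to 6 here, PBS and DTx cannot be compared, and no test was run.

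CD8+ T cells that meet antigen again and again in tumors acquire inhibitory receptors and lose functions stepwise, a state called exhaustion. PD-1, the product of Pdcd1, recruits phosphatases that dampen T cell receptor signals. TIM-3 (Havcr2) and LAG-3 (Lag3) are inhibitory receptors that are often found together with PD-1 on exhausted cells. The same receptors also appear after ordinary activation, so exhaustion is usually read from further genes such as Tox, a transcription factor that maintains the state, and Entpd1, which encodes the ectoenzyme CD39.

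The label of exhausted-like cells rested on the genes of the rule more than on independent markers. Of 8 listed markers outside the rule (Tox, Ctla4, Tigit, Entpd1, Cd101, Nr4a2, Prdm1 and Batf), only Nr4a2 met the criterion for a call given below against other Cd8-gated cells. Ctla4 met it when cells with Mki67 or Top2a were left out of the comparison. Cd101 was not among the listed genes that could be compared. Tox, Entpd1 and Prdm1 had 23, 21 and 26 UMIs, so few that a missing call does not show a missing difference. These markers thus left the label undecided, and the cells are named by the rule and not as exhausted cells. They were T cells by their transcripts, since CD3 chain transcripts were found in 178 of 180 and Trac in 141.

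Most checkpoint CD8 cells came from 3 libraries. Library 4 held 73 of them among 827 Cd8-gated cells, a share of 8.83% (95% Clopper-Pearson interval 6.98 to 11). In library 5, 62 of 869 cells qualified, or 7.13% (5.51 to 9.05). Library 6 had 26 of 891, or 2.92% (1.91 to 4.25). These 3 libraries thus held 161 of the 180 cells. Libraries 1, 2 and 3 held 11 of 622 (1.77%), 1 of 886 (0.113%) and 7 of 402 (1.74%). The libraries held 1916305 to 5127776 UMIs in all. Over all libraries the share was 4.0% (3.45 to 4.62), and these intervals cover counting error only.

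The share was read beside sequencing depth, since a rule that asks for several genes can be met more often in deeper cells. How much of the difference among libraries was due to depth was not tested. The median checkpoint CD8 cell held 3156.5 UMIs and the median other Cd8-gated cell 1669. Median depth of the other Cd8-gated cells was 2676, 2376 and 1546 UMIs in libraries 4, 5 and 6, and 877 to 1366 in libraries 1 to 3. Libraries 1 and 2 were near each other in this depth, at 1366 and 1289 UMIs, with shares of 1.77% and 0.113%. Each cell was then thinned to 1000 UMIs, which left out shallower cells, 9 checkpoint CD8 cells among them. All gates were applied anew to the thinned counts, and 32 of 3022 cells (1.06%) met the rule. Cells that lost all Cd4, Foxp3, Mki67 or Top2a UMIs by thinning could enter, so these need not all be checkpoint CD8 cells at full depth. The thinned share was highest in library 5 at 2.54% (1.46 to 4.09), followed by 1.10% (0.445 to 2.26) in library 6 and 0.945% (0.348 to 2.05) in library 4. Library 4, which had the largest share before thinning, was therefore not set apart at equal depth. In library 2 the thinned count was 0 of 578, with a Clopper-Pearson interval of 0 to 0.636%, and a limit of 3 counts would be 0.519%.

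**Figure D1:**
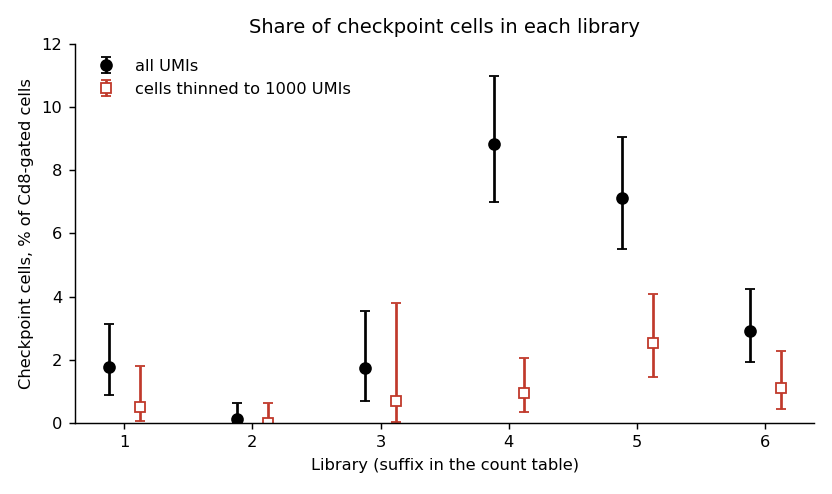
Share of checkpoint CD8 cells among Cd8-gated cells (y axis, percent) in each library (x axis), from all UMIs (filled circles) and after thinning each cell to 1000 UMIs (open squares), with 95% Clopper-Pearson intervals. Libraries 4 and 5 stand highest at 8.83% and 7.13% from all UMIs, and library 4 falls to 0.945% after thinning.

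Many members passed the rule by the smallest possible margin. Exactly 1 Pdcd1 UMI was present in 95 of the 180 cells, and 73 held 1 Pdcd1 UMI and 1 UMI of Havcr2 or Lag3 in total. Just outside the rule stood 418 non-cycling cells with Pdcd1 but no Havcr2 or Lag3 UMI, 274 of them with a single Pdcd1 UMI, and 300 non-cycling cells with Havcr2 or Lag3 but no Pdcd1. As a background, 647 other Cd8-gated cells with at least 2 of the naive T cell markers Tcf7, Lef1 and Ccr7, at a median of 1523 UMIs, held a Pdcd1 UMI in 4.95% of cells (3.41 to 6.91), Havcr2 in 1.85% and Lag3 in 2.63%. Of all 658 cells with these naive markers 11 (1.67%, 0.837 to 2.97) met the whole rule. This set of background cells was chosen after the data were seen. Within the group 84 cells had Havcr2 only, 75 had Lag3 only and 21 had both.

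To compare gene levels at like depth, the UMIs observed in checkpoint CD8 cells were set against the number expected from comparison cells of the same library and the same depth quartile. The ratio of observed to expected UMIs is given with a 95% counting interval. A gene was called when the ratio was at least 1.5 in either direction and had the same direction in every library with at least 20 checkpoint CD8 cells, here libraries 4, 5 and 6. Against 2730 other Cd8-gated cells, 179 checkpoint CD8 cells could be matched, with mean depths of 3523 and 3416 UMIs. Of 5616 genes compared, 67 were called higher (1.19%) and 96 lower (1.71%), and the median log2 ratio over all genes was 0.03. The counting interval lay clear of 1 for 60 of the 67 and for 91 of the 96. These genes were selected on the same counts, so this is no separate support for the calls. The largest falls were genes of chromosome segregation and histones such as Ube2c and Hist1h2ae, and the comparison cells included cycling cells while the checkpoint CD8 cells did not. Against the 2196 non-cycling comparison cells 23 of 5572 genes were called lower (0.413%), 15 of them among the 96, and 81 were called higher (1.45%), 43 of them among the 67.

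Of the costimulatory receptors, Tnfrsf9 and Tnfrsf4 of the TNF receptor family were called higher. Tnfrsf9, which encodes the activation-induced receptor 4-1BB, had 40 UMIs against 20.3 expected in library 4, 88 against 42.1 in library 5 and 18 against 8.6 in library 6. Its log2 ratio was thus alike in all 3 libraries, at 0.96, 1.05 and 1.02. Over all libraries 165 Tnfrsf9 UMIs stood against 83.2 expected, a ratio of 1.98 (1.66 to 2.36), and 38.3% of checkpoint CD8 cells held a Tnfrsf9 UMI against 11.3% of other Cd8-gated cells before matching. Tnfrsf4, which encodes the costimulatory receptor OX40, had a ratio of 1.73 (1.41 to 2.12) and exceeded its expected count in each of the 3 libraries. Of 12 costimulatory genes compared, these 2 were called and 10 lay above a log2 ratio of 0, with a median of 0.23. Among all genes compared, 1.19% were called higher and 55.0% lay above 0. Tnfrsf18 and Cd27, of the same family, had ratios of 1.16 (0.96 to 1.40) and 1.26 (0.95 to 1.66) and were not called. Icos and Cd28 had ratios of 1.14 (1.0 to 1.30) and 1.14 (0.99 to 1.30).

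Regulatory sequence was read for genes of the rule and for the 15 most raised genes, using the 250 bases before each RefSeq start (GRCm38.p6), available for 16 of 18 genes. The letters TGANTCA, to which AP-1 binds, were searched on both strands with GGAAAA, the core to which NFAT binds. TGANTCA was found before Havcr2 and before the second start of Tnfrsf9, and GGAAAA before the first start of Tnfrsf9. Both genes are shown because Havcr2 defines the cells and Tnfrsf9 was called with alike ratios in 3 libraries. The window of Pdcd1, which also defines the cells, held 0 matches and is not shown. The windows are chr11:46454681-46454930 on the plus strand for Havcr2, chr4:150919905-150920154 and chr4:150927749-150927998 on the plus strand for Tnfrsf9, with matches in capitals, GGAAAA there on the opposite strand as TTTTCC.
Havcr2: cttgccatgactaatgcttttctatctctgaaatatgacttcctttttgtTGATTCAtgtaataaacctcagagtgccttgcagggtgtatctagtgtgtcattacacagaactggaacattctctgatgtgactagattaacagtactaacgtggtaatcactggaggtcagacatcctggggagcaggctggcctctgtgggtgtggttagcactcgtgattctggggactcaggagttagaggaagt
Tnfrsf9, first start: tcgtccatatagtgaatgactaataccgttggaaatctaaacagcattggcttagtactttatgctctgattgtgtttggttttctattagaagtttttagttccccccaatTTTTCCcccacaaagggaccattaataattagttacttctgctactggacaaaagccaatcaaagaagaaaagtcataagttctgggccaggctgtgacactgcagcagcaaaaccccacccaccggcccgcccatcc
Tnfrsf9, second start: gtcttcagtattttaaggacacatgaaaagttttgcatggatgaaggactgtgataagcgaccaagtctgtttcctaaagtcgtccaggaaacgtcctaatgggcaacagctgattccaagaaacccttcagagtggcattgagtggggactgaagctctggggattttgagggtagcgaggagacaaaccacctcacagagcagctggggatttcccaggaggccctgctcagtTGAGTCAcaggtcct
Of all 32851 windows of this length, 6.75% held TGANTCA and 20.4% held GGAAAA. Among the 14 raised genes with a window, 2 held TGANTCA and 3 held GGAAAA, so the matches are a description of these letters and no more.

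Of the NR4A transcription factors, which are induced by T cell receptor signals and take part in exhaustion programs, Nr4a2 and Nr4a3 were called higher. Nr4a2 had 58 UMIs against 36.7 expected in library 4, 34 against 17.7 in library 5 and 30 against 6.5 in library 6. The excess was present in each library and largest in library 6, where 46.2% of checkpoint CD8 cells held Nr4a2. The overall Nr4a2 ratio was 1.65 (1.35 to 2.0), and that of Nr4a3 was 1.70 (1.29 to 2.24). Nr4a1, the third member, had a ratio of 1.25 (1.09 to 1.44) that rested on library 4, with 161 UMIs against 84.4 expected, and it was below expectation in libraries 5 and 6. Irf8, an interferon regulatory factor, had 34 UMIs against 16.4 expected, a ratio of 2.05 (1.38 to 3.06), and was called. Of 21 exhaustion and activation transcription factors compared, Nr4a2, Nr4a3 and Irf8 were called higher, none was called lower, 18 lay above 0 and the median log2 ratio was 0.27, or 0.037 without library 4. Among all genes compared, 1.19% were called higher and 55.0% lay above 0.

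The factors most tied to exhaustion gave no clear difference. Tox had 23 UMIs against 18.2 expected, a ratio of 1.26 (0.78 to 1.98), with 4, 10 and 0 UMIs in libraries 4, 5 and 6 and 9 in libraries 1 to 3, so that a difference was not detectable at this depth. Against non-cycling comparison cells the Tox ratio was 1.70 (1.0 to 2.86). Entpd1 had a ratio of 1.19 (0.72 to 1.90). Prdm1, which encodes the repressor Blimp-1, had 26 UMIs against 15.2 expected, a ratio of 1.69 (1.07 to 2.63), and was counted in too few libraries for a call. Batf, an AP-1 family factor of effector and exhausted cells, had a ratio of 1.25 (1.03 to 1.51) that rested on library 4, where 82 UMIs stood against 46.9 expected. In library 5 Batf had 27 against 38.7 and in library 6 it had 8 against 10.6.

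None of 9 inhibitory receptors outside the rule was called. Ctla4, which encodes a receptor that competes with CD28 for its ligands, had 75, 66 and 16 UMIs in libraries 4, 5 and 6 against 59.0, 46.1 and 8.3 expected. The Ctla4 ratio was 1.38 (1.17 to 1.62), and it reached 1.51 (1.26 to 1.80) and was called against non-cycling comparison cells. Tigit, a receptor for CD155, had an equal ratio of 1.38 (1.17 to 1.62) with log2 ratios of 0.43, 0.40 and 0.43 in the 3 libraries. Cd160 had a ratio of 1.09 (0.84 to 1.39). The median log2 ratio of the 9 receptors was 0.39, with 8 above 0 beside 55.0% of all genes compared, and it was 0.078 without library 1. Cd96, Cd5 and Vsir had ratios of 0.93 (0.62 to 1.35), 1.03 (0.81 to 1.31) and 1.07 (0.75 to 1.49).

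**Figure D2:**
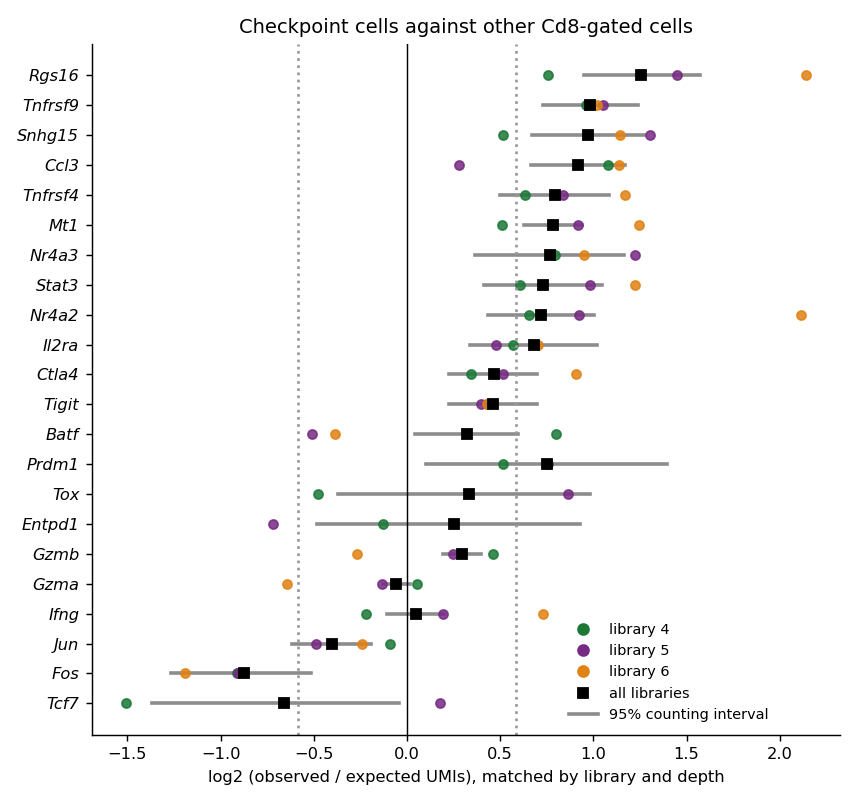
Log2 ratio of observed to expected UMIs (x axis) for 22 named genes in checkpoint CD8 cells against other Cd8-gated cells of the same library and depth quartile. Squares are all libraries together with 95% counting intervals, circles are libraries 4, 5 and 6 where at least 5 UMIs were observed plus expected, and dotted lines mark a 1.5-fold difference. Tnfrsf9 is alike in the 3 libraries (0.96 to 1.05), while Batf and Ifng fall on both sides of 0.

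Rgs16 and Rgs2, regulators of G protein signaling, and 3 cytokine receptors were called higher. Rgs16, which is induced by T cell activation, had 25 UMIs against 14.6 expected in library 4, 39 against 13.9 in library 5 and 28 against 6.0 in library 6. Its ratio of 2.39 (1.93 to 2.98) was the largest among genes with at least 100 UMIs observed plus expected. Part of the Rgs16 UMIs lay in a single cell with both Havcr2 and Lag3, given below, which the counting interval does not take into account. Rgs16 was found in 24.4% of checkpoint CD8 cells and 7.85% of other Cd8-gated cells before matching. Rgs2 had a ratio of 1.67 (1.26 to 2.19) that rested on library 5, with 34 UMIs against 10.8 expected, while library 4 had 20 against 18.9. Il2ra, the high-affinity chain of the IL-2 receptor, had a ratio of 1.60 (1.26 to 2.03) with an excess in each of the 3 libraries. Il4ra and Il21r were called as well, so that 3 of 13 cytokine receptor genes were called higher, beside 1.19% of all genes compared. Lfng, which encodes a glycosyltransferase that modifies Notch receptors, had a ratio of 1.83 (1.40 to 2.40). The other named rises were P2ry10 at 1.77, Chrac1 at 1.74, Rab10os at 1.66 and Btg3 at 1.63. Stat3, which carries signals from several cytokine receptors, had a ratio of 1.66 (1.33 to 2.07).

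The chemokine Ccl3 and the cytokine Csf1 were called higher, and Ifng, Tnf and the granzymes were not called. Ccl3 had 91 UMIs against 42.8 expected in library 4, 32 against 26.3 in library 5 and 20 against 8.8 in library 6, a ratio of 1.89 (1.59 to 2.25). Csf1, the macrophage growth factor, had a ratio of 1.87 (1.27 to 2.77). Ccl4 had a ratio of 1.45 (1.34 to 1.57), but a single cell held 134 of its 787 UMIs. Ifng had 409 UMIs against 395.6 expected, a ratio of 1.03 (0.93 to 1.15), and Tnf had 0.73 (0.51 to 1.02). Of 15 cytotoxic granule genes none was called. Gzma had a ratio of 0.96 (0.91 to 1.01), Gzmb had 1.23 (1.14 to 1.32) and Prf1 had 1.08 (0.67 to 1.68). Il10, which encodes an immunosuppressive cytokine, had 7 UMIs in 4 checkpoint CD8 cells, 4 of them in 1 cell, too few for comparison.

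Metallothioneins, small proteins that bind zinc and other metals, rose as a pair. Mt1 had 145 UMIs against 101.5 expected in library 4, 142 against 74.9 in library 5 and 109 against 45.8 in library 6. The Mt1 ratio was 1.72 (1.54 to 1.92). Mt2 had 51 UMIs against 16.4 expected, a ratio of 3.04 (2.20 to 4.32), with 8 against 6.7 in library 4 and 30 against 6.1 in library 5. Both genes exceeded expectation in libraries 4, 5 and 6, with the smallest excess in library 4. The long noncoding RNA Snhg15 had a ratio of 1.96 (1.59 to 2.42), with 25 of its 116 UMIs in 1 cell.

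None of the compared genes of stem-like and memory T cells was called, and in the lists other than cell cycle and the regulatory T cell list, Fos was the only gene called lower. Tcf7, which encodes TCF-1, the factor that sustains stem-like exhausted cells, had 22 UMIs against 35.1 expected, a ratio of 0.63 (0.39 to 0.97). The Tcf7 deficit lay in library 4, with 6 UMIs against 18, whereas library 5 had 8 against 7.0. Id3 had a ratio of 0.30 (0.10 to 0.64) and Klf2 of 0.75 (0.63 to 0.89), and Il7r was level at 0.99 (0.83 to 1.18). Of 14 stem-like and memory genes, 3 lay above 0, beside 55.0% of all genes compared. Their median log2 ratio was -0.16 and none was called. Against non-cycling comparison cells Tcf7 was called lower at 0.54 (0.32 to 0.83), with 6 UMIs against 21.6 in library 4 and 8 against 8.7 in library 5, and the median over 15 genes was -0.37. Fos, an immediate early AP-1 subunit that also rises during tissue dissociation, had 33 UMIs against 62.6 expected in library 4, 16 against 30.4 in library 5 and 3 against 7.5 in library 6. The Fos ratio was 0.55 (0.42 to 0.70). Jun had a ratio of 0.76 (0.65 to 0.87), and it was called at 0.66 (0.56 to 0.76) against non-cycling comparison cells.

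No metabolic or interferon-stimulated gene was called against other Cd8-gated cells. All 13 glycolysis genes compared lay above 0, beside 55.0% of all genes compared. The group had a median log2 ratio of 0.21 and was led in UMI number by Aldoa at a ratio of 1.16 (1.06 to 1.26) and Ldha at 1.18 (1.08 to 1.29). Of 20 oxidative phosphorylation genes, 10 lay above 0 with a median of -0.0016. Of 15 interferon-stimulated genes, 4 lay above 0 with a median of -0.07. Against non-cycling comparison cells these 3 medians were 0.19, 0.0070 and -0.21, beside 0.05 for all genes, and 1 interferon-stimulated gene, Irf7, was called lower.

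**Figure D3:**
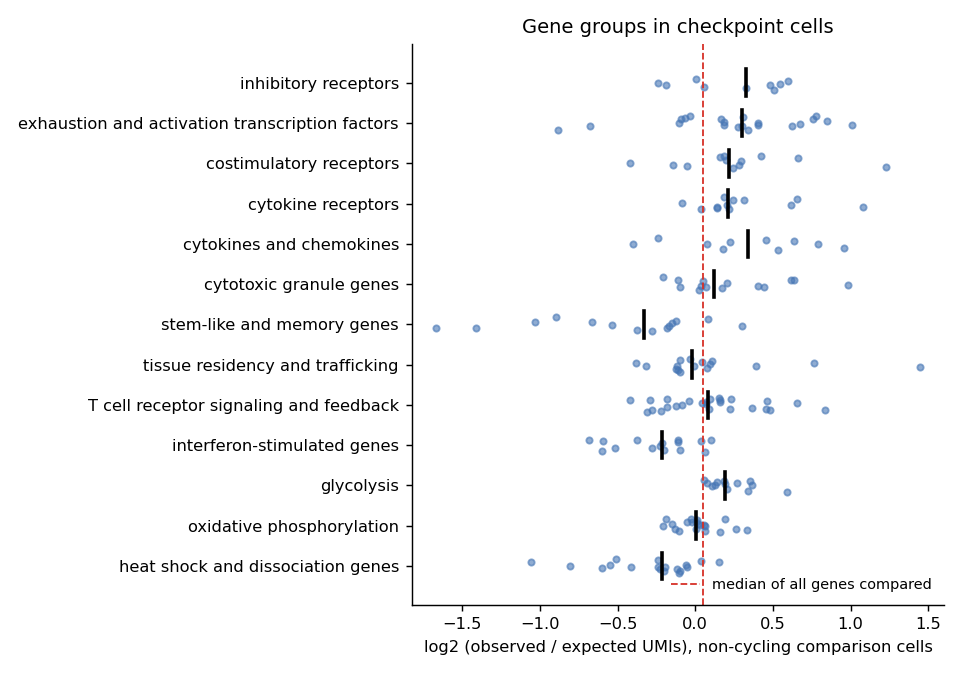
Log2 ratio of observed to expected UMIs (x axis) for each gene (points) of 13 gene groups in checkpoint CD8 cells against other non-cycling Cd8-gated cells, drawn where the gene was also compared against all other Cd8-gated cells. Black bars are medians of the drawn genes and the dashed line is the median of all genes compared, 0.05. Glycolysis genes all lie above 0, and stem-like and memory genes lie mostly below it.

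A study list of genes associated with regulatory T cells, drawn from bulk RNA of other samples, was read in its parts. The study grouped these genes partly by their behavior in CD8+ T cells of the same tumor model, so their direction here is not independent evidence. In part A, 53 of its genes could be compared, 43 lay above 0 and the median log2 ratio was 0.29, with Ccl3, Csf1, Gfod1, Mt1 and Nr4a2 called higher and 2 genes lower. Among all genes compared, 55.0% lay above 0, 1.19% were called higher and 1.71% lower. In part B, 116 of 194 genes lay above 0, the median was 0.11, and 7 were called higher and 21 lower. Against non-cycling comparison cells part B had 132 of 169 genes above 0, a median of 0.23, 13 genes called higher and 2 lower. All genes in that comparison had 56.9% above 0, a median of 0.05, 1.45% called higher and 0.413% lower. Parts C, D and E had 13, 4 and 6 comparable genes and medians of 0.33, 0.37 and 0.50. The part C median was -0.13 with libraries weighted equally. Tnfrsf9 was the called rise in part C and Tnfrsf4 that in part D.

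Against 373 non-cycling cells with Pdcd1 but no Havcr2 or Lag3, Tnfrsf9 and Il2ra were again called higher, and Tnfrsf4, Il4ra and Il21r were not. Tnfrsf9 had a ratio of 2.47 (1.88 to 3.30), Rgs16 of 2.09 (1.51 to 2.94), Il2ra of 2.08 (1.46 to 3.01) and Nr4a3 of 1.89 (1.29 to 2.85). Phlda1, Mt1, Ccl3 and Nr4a2 were also called, in all 78 of 5596 genes higher (1.39%) and 80 lower (1.43%). The counting interval lay clear of 1 for only 54 of the 78 and 44 of the 80. In the same comparison 4 proliferation genes were called higher, although cells with Mki67 or Top2a were left out of both groups. Of 20 cell cycle genes 17 lay above 0, beside 49.3% of all genes compared, and the median log2 ratio was 0.44. Stmn1, Birc5, Mcm2 and Tubb5 were called higher, with ratios of 1.71 (1.12 to 2.65), 2.66 (1.29 to 6.31), 1.67 (0.87 to 3.37) and 1.51 (1.20 to 1.90). Their part in the rises of Tnfrsf9 and Il2ra was not tested. Tnfrsf4 had a ratio of 1.47 (1.12 to 1.95), Il4ra of 1.85 (1.02 to 3.56) and Il21r of 1.28 (0.92 to 1.78). Ctla4 at 1.31 (1.05 to 1.62), Tigit at 1.20 (0.97 to 1.49), Tox at 1.0 (0.55 to 1.80) and Batf at 1.01 (0.79 to 1.29) were not called. Cd226, which encodes the activating receptor that shares ligands with TIGIT, was the largest named fall, with 68 UMIs against 124.7 expected and a ratio of 0.55 (0.40 to 0.74). Cd7 and Itga4, the latter an integrin chain of lymphocyte homing, had ratios of 0.64 (0.49 to 0.84) and 0.65 (0.48 to 0.86). Of 15 interferon-stimulated genes only 1 lay above 0, with a median log2 ratio of -0.42, and 1 was called lower.

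Cytotoxic cells without Pdcd1, meaning non-cycling cells with a UMI of Gzma, Gzmb, Gzmk or Prf1, were compared in the same way. Against 1295 of these, 109 of 5517 genes were called higher (1.98%) and 29 lower (0.526%). The counting interval lay clear of 1 for 84 of the 109 and 22 of the 29. Rgs16 led with a ratio of 3.09 (2.30 to 4.26). Hilpda, a lipid droplet protein induced by hypoxia, had a ratio of 2.19 (1.73 to 2.80) that rested on library 4, with 90 UMIs against 26.9 expected, while library 5 had 25 against 22.4 and library 6 had 8 against 7.6. Tnfrsf9, Il2ra, Stat3 and Nr4a2 had ratios of 2.09 (1.68 to 2.61), 2.04 (1.51 to 2.79), 2.03 (1.55 to 2.69) and 1.92 (1.52 to 2.44). Tnfrsf4, Irf8, Rgs2 and Ccl3, which were called against other Cd8-gated cells, were not called against cytotoxic cells. Nr4a3, Csf1, Il4ra and Il21r were called in both comparisons. Ctla4 was called here at 1.54 (1.27 to 1.88), and Tox had 21 UMIs against 10.0 expected, a ratio of 2.04 (1.12 to 3.90) without a call. Fos and Jun were lower at 0.48 (0.36 to 0.64) and 0.64 (0.55 to 0.75). Gzma and Gzmb belong to the definition of that group. The 3 comparisons share the checkpoint CD8 cells and part of their comparison cells.

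Levels across these groups are given as UMIs per 10000 with 95% Poisson intervals, pooled over libraries without depth matching. Tnfrsf9 stood at 1.06 in cytotoxic cells without Pdcd1 and 0.996 in cells with Pdcd1 only. It stood at 1.54 (1.06 to 2.17) in the 73 checkpoint CD8 cells at the margin of the rule and at 3.17 (2.66 to 3.76) in the other 107. The cycling cells with the same checkpoint genes, 92 in number, were at 3.21 (2.73 to 3.77). Il2ra stood at 1.73 (1.22 to 2.38) at the margin and at 1.23 (0.919 to 1.61) above it, so that it did not follow the same order. Fos was at 2.0 and 1.90 in the cytotoxic and Pdcd1-only groups and at 0.888 (0.534 to 1.39) and 1.09 (0.797 to 1.45) in the checkpoint CD8 cells.

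**Figure D4:**
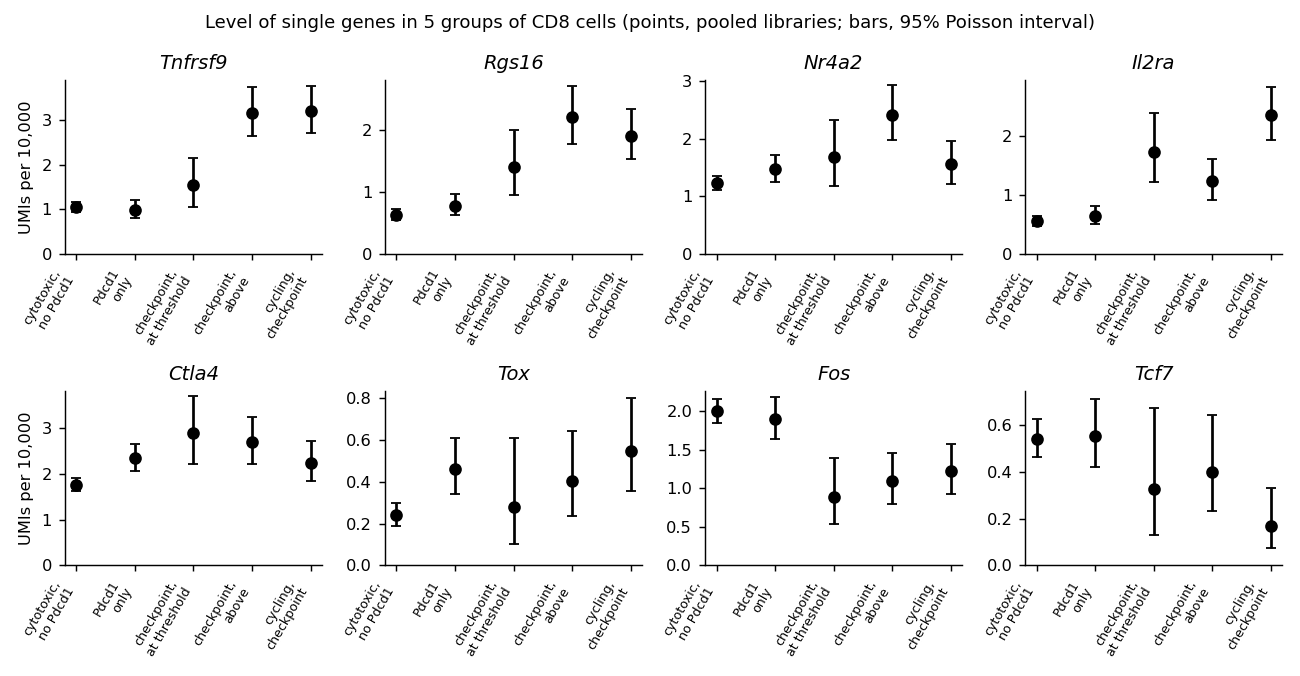
UMIs per 10000 (y axes, linear from 0) of 8 genes in 5 groups of Cd8-gated cells (x axes), pooled over libraries, with 95% Poisson intervals. Tnfrsf9 and Rgs16 stand higher in checkpoint CD8 cells above the margin of the rule (3.17 and 2.20) than in cells with Pdcd1 only (0.996 and 0.780), Fos stands lower, and the Tox intervals overlap among checkpoint groups.

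Cycling cells with the same checkpoint genes differed from checkpoint CD8 cells by the rule itself, and fewer than 3 libraries had 20 matched cells. With 2 libraries required, 702 of 5656 genes were higher (12.4%) and 997 lower (17.6%) in checkpoint CD8 cells, and these numbers of calls are not interpreted. Among genes outside proliferation, Gzmb had a ratio of 0.62 (0.53 to 0.72), Ifng of 0.55 (0.44 to 0.69) and Il2ra of 0.40 (0.27 to 0.60), all lower in the non-cycling cells. They do not stand for their lists. The median log2 ratio was -0.24 for cytotoxic granule genes, 0.06 for cytokines and chemokines and 0.12 for cytokine receptors. Rgs16 at 1.0 (0.58 to 1.81) and Ctla4 at 1.05 (0.72 to 1.57) were near 1 with wide intervals.

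Within the group, cells with Havcr2 only were set against cells with Lag3 only. This comparison was chosen after the data were seen, and it rested on libraries 4 and 5, with 35 and 34 Havcr2-only cells against 27 and 21 Lag3-only cells. The interferon-induced membrane genes Ifitm1, Ifitm2 and Ifitm3 were higher in Havcr2-only cells, with ratios of 2.38 (2.05 to 2.79), 2.93 (2.28 to 3.81) and 2.96 (2.09 to 4.35). Ifitm3 had 74 UMIs against 19.4 expected in library 4 and 90 against 19.9 in library 5, spread over 37 cells. These neighboring genes are similar in sequence, so reads may be split among them. Among 3473 genes compared, 375 were higher (10.8%) and 372 lower (10.7%) by at least 1.5-fold with the same direction in both libraries, so these calls are far more frequent than those required in 3 libraries. The median log2 ratio over all genes was -0.01. How many such calls the scatter of small counts would give was not tested, so their number is not read as a difference.

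Havcr2-only cells also held more transcripts of some effector and residency genes. Ifng had a ratio of 1.87 (1.44 to 2.46), with 93 UMIs against 69.3 in library 4 and 104 against 42.0 in library 5. Cxcr6, a chemokine receptor of tissue-resident T cells, had a ratio of 1.97 (1.32 to 3.04) and the activating receptor gene Klrk1 (NKG2D) of 2.22 (1.38 to 3.78). Il7r and Ccl4 had ratios of 1.98 (1.29 to 3.16) and 1.68 (1.38 to 2.08). Listed markers of other cell types moved with these genes: the γδ T cell receptor segment Trgv2 had 17 UMIs in 11 Havcr2-only cells against 5.7 expected, a ratio of 2.83 (0.97 to 12.4), and Gata3, a factor of helper T cells, had a ratio of 1.87 (0.96 to 3.98). Both were called with 2 libraries required, and their part in the rises was not tested. Lag3-only cells held more Rgs16 and Rgs2, where Havcr2-only cells had 22 UMIs against 72.2 and 17 against 58.4 expected. The Rgs16 ratio was 0.31 (0.17 to 0.55) and the Rgs2 ratio 0.30 (0.15 to 0.55), both below 1 in libraries 4 and 5. Gzmb went in opposite directions, with 133 UMIs against 280.8 in library 4 and 246 against 114.0 in library 5. Ctla4 at 0.67 (0.47 to 0.96) and Tigit at 0.65 (0.45 to 0.94) were not called, and Tigit was above expectation in library 4.

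**Figure D5:**
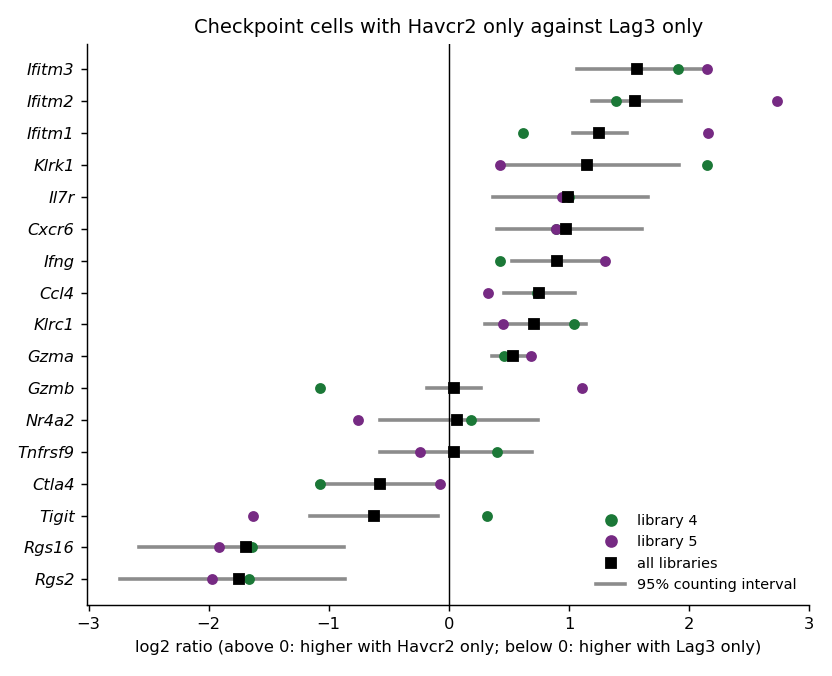
Log2 ratio (x axis) of UMIs in checkpoint CD8 cells with Havcr2 only to the number expected from cells with Lag3 only, for 17 genes. Squares are all libraries with 95% counting intervals and circles are libraries 4 and 5. The Ifitm genes lie right of 0 and Rgs16 and Rgs2 left of 0 in both libraries, while Gzmb, Nr4a2, Tnfrsf9 and Tigit lie on both sides.

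The 21 cells with both Havcr2 and Lag3 held more Tnfrsf9 and Rgs16 than cells with 1 of them. In 20 matched cells Tnfrsf9 had 42 UMIs against 15.4 expected, a ratio of 2.68 (1.74 to 4.29), found in 13 cells. Rgs16 had 32 against 10.3, a ratio of 3.01 (1.86 to 5.16), but 18 of its UMIs were in 1 cell. Tigit had 20 UMIs against 20.2 expected. No library held 20 such cells, so no gene could be called.

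T cell receptor V segments were a readout that the rule did not use, and Trbv19 was chosen after its values were seen. In libraries 4 to 6, Trbv19 was present in 23 of 153 checkpoint CD8 cells with a Trbv UMI, or 15% (9.77 to 21.7). Among other Cd8-gated cells it was present in 202 of 2097, or 9.63% (8.40 to 11). The shares were 5 of 72, 10 of 59 and 8 of 22 in libraries 4, 5 and 6, against 6.46%, 10.4% and 11.9% of the other cells. The library 6 share was 36.4% (17.2 to 59.3), and in library 4 the shares of both groups were alike.

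Transcripts of other cell types were sparse and were not equal between the groups compared. None of 6 melanoma markers had a UMI in checkpoint CD8 cells. B cell markers reached a UMI in 42 of 180 checkpoint CD8 cells (23.3%) and 16.5% of other Cd8-gated cells, with levels of 0.864 and 0.966 UMIs per 10000 and Cd79a at 0. Myeloid markers were at 0.440 and 0.342 per 10000 with Csf1r at 0, and stromal markers at 0.22 and 0.234. Markers of CD4 helper cells such as Cd40lg were at 1.88 and 1.54 per 10000, and γδ and NK cell markers at 0.518 and 0.293 with Trdc at 0. Without depth matching, CD4 helper markers were found in 28.3% and 17.1% of cells, and γδ and NK cell markers in 12.8% and 4.38%. Myeloid markers were found in 12.2% and 5.79% of cells and stromal markers in 7.22% and 4.70%. Leaving out cells with a UMI of 12 of the melanoma, B cell, myeloid and stromal markers kept 154 checkpoint CD8 cells and gave 66 genes higher and 84 lower against other Cd8-gated cells, 48 and 69 of them among the 67 and 96. Leaving out cells with any of the 21 markers of these lists kept 112, with 17 matched in library 6, so that no gene could be called with 3 libraries required. In those cells the ratio was 2.36 for Tnfrsf9, 2.72 for Rgs16, 1.79 for Nr4a2 and 1.63 for Mt1, and that of Fos was 0.72, within 1.5-fold. Cells with markers of CD4 helper, γδ or NK cells were not left out in either setting. Mitochondrial transcripts had medians of 0.883% and 0.929% in checkpoint CD8 cells and other Cd8-gated cells. Of the cell barcodes, 76 occurred in more than 1 library, in 152 cells, 2 of them checkpoint CD8 cells.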

How the data were processed

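Single-cell RNA libraries of sorted TCRβ+ tumor T cells were made with a Chromium 5′ kit, from 3 PBS and 3 DTx samples. The authors deposited 1 table of UMI counts per gene and cell (14597 genes, 12818 cells with 201 to 2494 genes each). Per the labels, Cell Ranger and Seurat were used; the labels name mm9 and the study's methods mm10, which was not resolved. The authors' upper limit on genes per cell removes deep cells, which can lower the number of activated cells and doublets. No doublet caller was run.

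Cells were assigned to libraries 1 to 6 by the barcode suffix. The labels link no suffix to a sample, so libraries were not treated as replicates and no test was run. Members, gene lists and comparisons were chosen with earlier results of these data known. Observed UMIs were divided by those expected from comparison cells of the same library and depth quartile (4 bins), after adding 0.5 to each. Genes with at least 20 UMIs observed plus expected were compared, without the 9 rule genes. A call needed a 1.5-fold difference in the same direction in every library with at least 20 checkpoint CD8 cells and 5 UMIs, and at least 3 such libraries. Intervals (95%) were Clopper-Pearson or Poisson and cover counting error only; a count of 0 was given a limit of 3 counts. The genes named were the 15 largest rises and 10 largest falls among called genes with at least 100 UMIs, and genes of the lists. 1 listed gene and a background estimate that used it are not reported here. The script was tested on simulated data. Alternatives covered depth matching, depth bins, thinning, filters, fold, comparison cells and leaving out each library. Python 3.11.15, numpy 2.4.6, scipy 1.17.1, pandas 2.3.3 and matplotlib 3.10.9 were used.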

Additional observations from a re-analysis of the deposited data

How the results depend on the processing

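The share of checkpoint CD8 cells, 4.0% of Cd8-gated cells, depended on depth and on the rule. It was 1.06% after thinning to 1000 UMIs, 0.665% after thinning to 500 UMIs, 1.89% with at least 2 Pdcd1 UMIs, 0.467% with both Havcr2 and Lag3 required and 6.05% with cycling cells kept. Without libraries 1 to 3, an alternative chosen after seeing the data, it was 6.22%, and leaving out 1 library at a time gave 2.92% to 4.96%. Against other Cd8-gated cells, the number of genes called lower (96) was 57 without depth matching, 23 with non-cycling comparison cells and 48 without the deepest 5% of cells, and a 2-fold criterion left 5 higher and 40 lower. Called genes were higher in 41.1% of calls, and in 55.5%, 77.9% and 56.4% under the first 3 of these settings. Leaving out 1 library gave 67 to 286 genes higher and 94 to 270 lower, because without library 4, 5 or 6 only 2 libraries had to show the direction. Against cytotoxic cells without Pdcd1, 17 genes were lower without depth matching. Against cycling cells no gene could be called, since library 6 kept fewer than 20 matched cells; 169 were higher and 324 lower without depth matching, and 702 and 997 with 2 libraries required. Counts after thinning could not be had, since library 6 then kept 19 cells, and no library had 20 cells with both Havcr2 and Lag3. With libraries weighted equally the median log2 ratio was -0.39 for interferon-stimulated genes, 0.16 for part A and 0.034 for part B of the regulatory T cell list, and part B was at 0.22 with non-cycling comparison cells. The cell cycle median turned to 0.17 with non-cycling comparison cells. The log2 ratios of Hist1h2ae (0.60), Hist1h2ap (1.16), Birc5 (0.53), H2afx (0.030), Cks1b (0.067), Pclaf (0.76), Tuba1b (0.074) and Stmn1 (0.71) also turned above 0. Both groups then lacked Mki67 and Top2a UMIs, and why these ratios lay above 0 was not tested. Leaving out 1 library moved the median of transcription factors over 0.037 (without library 4) to 0.33, of inhibitory receptors over 0.078 (without library 1) to 0.41 and of interferon-stimulated genes over -0.16 (without library 3) to 0.096 (without library 5). Of 598 values of named genes, 28 lost the call and 16 gained it. The sign changed in 17, the 8 called falls above and 9 values of genes that were not called: Tox (-0.53) and Batf (-0.03) with libraries weighted equally, Ifng (-0.12) and Gzma (0.02) after thinning to 1000 UMIs, Gzma (0.05) with non-cycling comparison cells, Entpd1 (-0.10) without library 3, Batf (-0.26) without library 4 and Ifng (-0.05 and -0.04) without library 5 or 6. Of 260 list medians 13 changed sign, among them part C of the regulatory T cell list (-0.13 with libraries weighted equally; 0.15 to 0.58 with 1 library left out). Without cells holding any listed melanoma, B cell, myeloid or stromal marker, chosen after seeing the data because the first such setting used part of these lists, 0 genes were higher and 0 lower, since library 6 kept 17 matched cells, and with 2 libraries required 211 were higher and 268 lower, 40 and 75 of them shared with the 67 and 96. No paired analysis was possible because the table's columns carry no replicate numbers of the labels.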
